A study of Homo sapiens with 18 samples.

Results

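The replication-dependent histone genes are the clustered genes that encode the linker histone H1 and the core histones H2A, H2B, H3 and H4. They were taken by symbol, as H1- followed by a digit or as H2AC, H2BC, H3C or H4C followed by digits, on chromosomes 1 and 6, with pseudogenes left out. This gave 66 of the 60603 genes in the deposited tables, 55 on chromosome 6 and 11 on chromosome 1. H2AC18 and H2AC19 are missing from the set, because the identifiers paired with their symbols were not among the deposited counts. By class the 66 genes were 6 H1, 15 H2A, 18 H2B, 13 H3 and 14 H4 genes. Their RNA was measured in MDA-MB-231, a line of human breast adenocarcinoma cells, after purification of mRNA on oligo-dT beads, in 18 libraries from 9 conditions with 2 biological replicates each. The study asked how ZMYND8, a protein that reads chromatin marks, changes the response of these cells to doxorubicin, a drug that damages DNA.

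In the transient system (3 conditions), cells were labelled as control, as control given doxorubicin (0.6 µM, 48 h), or as transiently overexpressing Flag-ZMYND8 with the same treatment. Per the protocol an empty vector and a vehicle served as controls, while the labels of the control libraries say untreated. In the inducible system (6 conditions), a GFP cDNA or a Flag-ZMYND8 cDNA in the doxycycline-inducible lentiviral vector pInducer20 had been stably introduced under G418 selection. These GFP cells and ZMYND8 cells were sampled without doxorubicin or at 6 and 48 h of treatment with it (0.6 µM), and 250 ng/mL doxycycline was given to both kinds of cells and kept throughout. Each construct was carried by 1 line, so that an effect of ZMYND8 and any other difference between both lines cannot be told apart.

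Cells need large amounts of histone protein while they copy their DNA, and transcription of the replication-dependent histone genes rises at the start of S phase. Their genes have no introns in the coding part, and most of their mRNA carries no poly(A) tail: a stem-loop after the stop codon is bound by SLBP, and the U7 small nuclear ribonucleoprotein directs the cut just behind it. A smaller amount is cut further downstream at an ordinary poly(A) signal and polyadenylated, which has been described in differentiated cells and when the stem-loop route is impaired. Libraries made on oligo-dT beads therefore measure mainly the polyadenylated fraction, not the whole pool of histone mRNA.

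The libraries held 18300628 to 23724398 counts in the inducible system. In the transient system they held 5729294 to 5972396, apart from 24713822 in the second doxorubicin library. Levels are given as CPM, the counts scaled by library size and TMM factors, where 3 counts in a library stood for 0.122 to 0.168 CPM in the inducible and 0.114 to 0.572 CPM in the transient system. ZMYND8 itself stood at 922 and 927 CPM in ZMYND8 cells against 209 and 208 CPM in GFP cells, both without doxorubicin. In the transient libraries labelled as ZMYND8 with doxorubicin (here the ZMYND8-labelled libraries) it stood at 160 and 125 CPM, at 182 and 123 CPM with doxorubicin alone and at 219 and 199 CPM in control cells, so that the label was not borne out by the level. Replicate 2 with doxorubicin and replicate 2 of the ZMYND8-labelled libraries were closer than any other pair of transient libraries (chi-square divided by its degrees of freedom of 1.39, against 9.71 to 55.6 in the other 14 pairs, for genes with 20 counts or more). They are counted as separate libraries, and the transient results are also given without both of them. For antisense genes inside the exons of expressed genes, the density of counts relative to the sense gene was 1.46 to 1.65 in the transient libraries (medians over 386 to 418 gene pairs) and 0.0632 to 0.102 in the inducible ones, so that reads of both strands were not separated in the transient system. Among markers of the line, VIM stood at 2106 to 4494 CPM and CD44 at 512 to 1344 CPM in the inducible libraries, and the hormone receptor genes ESR1 and PGR at 0.799 CPM or less. SPARC, by contrast, stood at 107 to 182 CPM in GFP cells and at 0.203 to 1.56 CPM in ZMYND8 cells. In the transient libraries it stood at 2.82 to 6.11 CPM. CDH1 had been listed with ESR1 and PGR as a marker near 0, but it did not stay there. It stood at 0.58 to 21.7 CPM in the inducible and at 0.954 to 9.52 CPM in the transient libraries. The highest CDH1 levels were 20.1 and 21.7 CPM, in ZMYND8 cells after 48 h of doxorubicin.

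A histone stem-loop was found behind the stop codon of all 66 genes, within 22 to 62 bases, and in each of them all 6 base pairs of the stem could form, with G opposite T counted as a pair. The sequences of the members on which the results turn are shown with 5 bases on either side (hg38, DNA letters of the mRNA strand), and capitals mark the 16 bases of the stem-loop.
H1-2: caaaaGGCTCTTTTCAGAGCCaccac
H2AC6: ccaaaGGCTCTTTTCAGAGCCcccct
H2AC11: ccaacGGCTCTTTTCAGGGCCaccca
H2BC11: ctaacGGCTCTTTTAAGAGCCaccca
H2BC12: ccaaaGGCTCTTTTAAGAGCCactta
H2BC21: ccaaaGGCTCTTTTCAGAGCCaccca
The form shown for H1-2, H2AC6 and H2BC21 was shared by 38 of the 66 genes and that of H2BC11 and H2BC12 by 9, while the form of H2AC11 occurred in 1 gene. On hg38 the stem-loop lay at chr6:26055744-26055759 for H1-2, chr6:26124669-26124684 for H2AC6, chr6:27133515-27133530 for H2AC11, chr6:27132321-27132336 for H2BC11, chr6:27146366-27146381 for H2BC12 and chr1:149886188-149886203 for H2BC21. All of these lie behind the stop codon given by GENCODE 44, in the 3′ region of the gene.

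The gene models in which reads were counted (GENCODE release 31) treated the stem-loop in different ways. In 24 members the counted exons ran more than 100 bases past it, and in 21 of these the bases past it held AATAAA or ATTAAA, the usual poly(A) signals. In 7 members the model ended at the stem-loop and in 35 before it, so that a tail beyond the stem-loop was not counted there. H2BC12 (ENSG00000197903.7, 6:27146418-27146798, 381 counted bases) and H1-2 (ENSG00000187837.3, 6:26055787-26056428, 642 counted bases) were of the last kind. The models of H2AC6 (ENSG00000180573.9), H2BC11 (ENSG00000124635.8), H2AC11 (ENSG00000196787.3) and H2BC21 (ENSG00000184678.10) ran 1128, 566, 1761 and 1729 bases past their stem-loops. Levels per kb of counted length therefore compare unlike stretches of different genes.

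Promoter sequence from RefSeq (GRCh38.p14, 250 bases before to 50 after the start) was at hand for 61 members. Of these, 85.2% held CCAAT, which NF-Y binds, against 34.6% of all 35116 promoters in the table. TATAAA, a form of the TATA box, was in 63.9% against 11.5%, and ATTTGCAT, a form of the octamer bound by POU2F1, in 42.6% against 1.77%. The letters were searched on both strands. CCAAT was in every H1, H2A, H2B and H3 promoter and in 3 of 12 H4 promoters, and ATTTGCAT was in 78.6% of H2A and 77.8% of H2B promoters but in no H1 or H4 promoter. The promoters of an H2A, an H1 and an H2B gene are shown because these members carry much of the results, with capitals for these motifs on either strand. The H2AC11 promoter (chr6:27132793-27133092, plus strand) covers most of the gap to the divergent gene H2BC11. Both 5′ ends lay 292 bases apart, and that of H2BC11 (chr6:27132750) lies outside the sequence shown. The others are those of H1-2 (chr6:26056421-26056720, minus strand) and H2BC21 (chr1:149886633-149886932, minus strand).
H2AC11: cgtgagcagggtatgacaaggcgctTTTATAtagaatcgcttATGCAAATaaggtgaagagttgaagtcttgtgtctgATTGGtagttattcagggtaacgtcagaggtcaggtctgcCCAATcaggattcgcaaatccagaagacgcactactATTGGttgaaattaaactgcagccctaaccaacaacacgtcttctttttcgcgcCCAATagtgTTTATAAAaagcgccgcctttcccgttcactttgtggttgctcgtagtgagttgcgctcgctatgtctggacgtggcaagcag
H1-2: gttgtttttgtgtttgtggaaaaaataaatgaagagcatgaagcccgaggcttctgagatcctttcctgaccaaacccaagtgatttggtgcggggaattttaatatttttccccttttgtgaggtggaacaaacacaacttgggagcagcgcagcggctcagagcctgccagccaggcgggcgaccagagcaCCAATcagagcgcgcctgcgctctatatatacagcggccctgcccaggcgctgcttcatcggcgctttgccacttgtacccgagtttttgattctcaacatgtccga
H2BC21: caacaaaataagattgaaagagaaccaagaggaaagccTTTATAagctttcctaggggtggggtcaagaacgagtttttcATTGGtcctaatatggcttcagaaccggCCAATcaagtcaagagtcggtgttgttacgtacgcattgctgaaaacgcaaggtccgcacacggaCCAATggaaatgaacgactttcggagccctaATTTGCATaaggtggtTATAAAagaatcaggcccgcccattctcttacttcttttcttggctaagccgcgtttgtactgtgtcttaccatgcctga
The H1-2 promoter held CCAAT but neither TATAAA nor ATTTGCAT, and those of H2AC11 and H2BC21 held all 3 motifs. A match of letters does not show that a factor was bound.

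Most replication-dependent histone genes gave few or no counts in this polyadenylated RNA. In the inducible system 21 of the 66 had enough counts to be tested and held 99.0% of all member counts. The other 45 had at most 13 counts in any library, and 13 of them were never counted. Of the transient genes 14 were tested, holding 99.1% of the member counts, and all 14 were among the 21. The members' counts came to 3010 to 8301 per inducible library and 2270 to 18153 per transient library, with 32 to 43 and 19 to 36 members detected. By class, 2 H1, 4 H2A, 9 H2B, 3 H3 and 3 H4 genes were tested in the inducible system. H2B genes held 61.1% of the member counts there, H2A genes 18.9%, H1 genes 13.5%, H4 genes 5.31% and H3 genes 1.23%. In the transient libraries, where reads of both strands were not separated, the shares were 51.7%, 11.4%, 14.7%, 21.3% and 0.951% in the same order. Models that run past the stem-loop made up 13 of the 21 tested genes and 48.9% of the inducible counts, and models that end before it made up 5 genes and 50.3%.

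The detected genes were spread unevenly along the clusters. On chromosome 6, 15 neighbouring members from H4C4 to H2BC10 (6:26188765-26273356) gave 27 counts in all 18 libraries together and at most 6 in any library. The members on either side of this stretch, H2BC6 and H4C8, gave 1755 and 2933 counts. Shorter runs with at most 10 counts in each library were H2AC1 to H4C2 (6 members), H2AC15 to H4C13 (5 members) and, on chromosome 1, H3C13 to H3C15 (4 members). These runs were picked after the counts had been seen. Near-identical copies can lower a count, because reads that map to several places were left out. Of the 66 members, 32 had no stretch of 50 counted bases in common with any of the 80 histone genes compared, pseudogenes included, and 9 shared at least 80% of such stretches, H4C15 among them with 97.0%. The share was 22.6% in H2BC12, 8.11% in H2BC21, 5.05% in H2BC11, 0.591% in H2AC11, 0.446% in H2AC6 and 0 in H1-2.

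**Figure D1:**
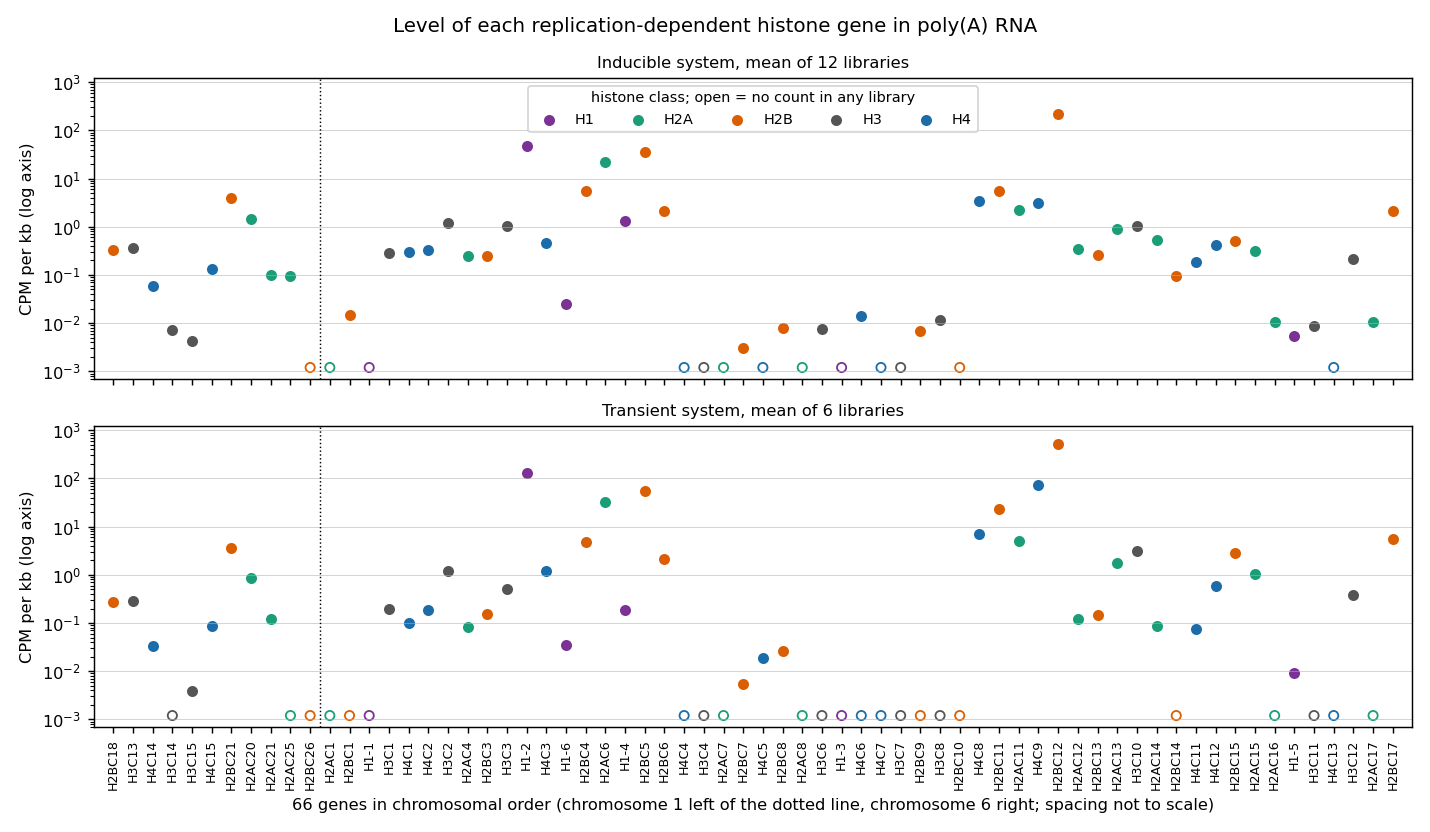
Mean level of the 66 histone genes in CPM per kb of counted exon length (log axis), in their order along chromosomes 1 and 6, for the inducible and the transient libraries, with open symbols for genes without a count. A few genes, led by H2BC12, stand above long stretches at or near 0, such as the 15 members from H4C4 to H2BC10.

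H2BC12, an H2B gene, had the highest level per kb in both systems, with a mean of 221 CPM per kb over the inducible libraries (127 to 369). It was followed by H1-2, a linker histone gene, at 47.7 CPM per kb (29.1 to 92.6), H2BC5 at 35.4 (23.1 to 48.4) and H2AC6 at 22.6 (15.3 to 33.6). The ranges of these neighbours in the order overlapped, apart from those of H2BC12 and H1-2. H2BC4 and H2BC11 came next at 5.65 and 5.61 CPM per kb, with ranges of 2.02 to 12.6 and 1.61 to 12.5. The H4 gene H4C9 ranked lower in the inducible system, at 3.05 CPM per kb, and was the third in the transient system at 74.6 CPM per kb. Both systems were counted and normalized in separate tables, and reads of both strands were not separated in the transient libraries. This contrast was therefore not tested.

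Taken as a sum, the histone genes had a higher level after 48 h of doxorubicin in both inducible lines, and 1.07 and 1.06 times the untreated level after 6 h. In GFP cells the 66 genes together came to 188 ± 10.6 CPM (SD, n = 2), to 202 ± 8.46 CPM after 6 h and to 350 ± 1.55 CPM after 48 h of doxorubicin. In ZMYND8 cells the sum was 174 ± 8.83, 184 ± 5.22 and 314 ± 7.46 CPM. The sum at 48 h was thus 1.86 times that without doxorubicin in GFP cells and 1.80 times in ZMYND8 cells, with no overlap between the libraries. Without H2BC12, which held 28.6% to 42.1% of the sum, the means were 116, 117 and 212 CPM in GFP cells and 124, 120 and 220 CPM in ZMYND8 cells. The transient sum was 569 and 395 CPM in control cells, 475 and 692 CPM with doxorubicin and 623 and 678 CPM in the ZMYND8-labelled libraries, so the control and doxorubicin libraries overlapped. In bulk RNA, a larger share of cells in S phase and more histone RNA per cell cannot be told apart. Nor can a change in the polyadenylated part of histone mRNA, since mainly that part was measured.

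**Figure D2:**
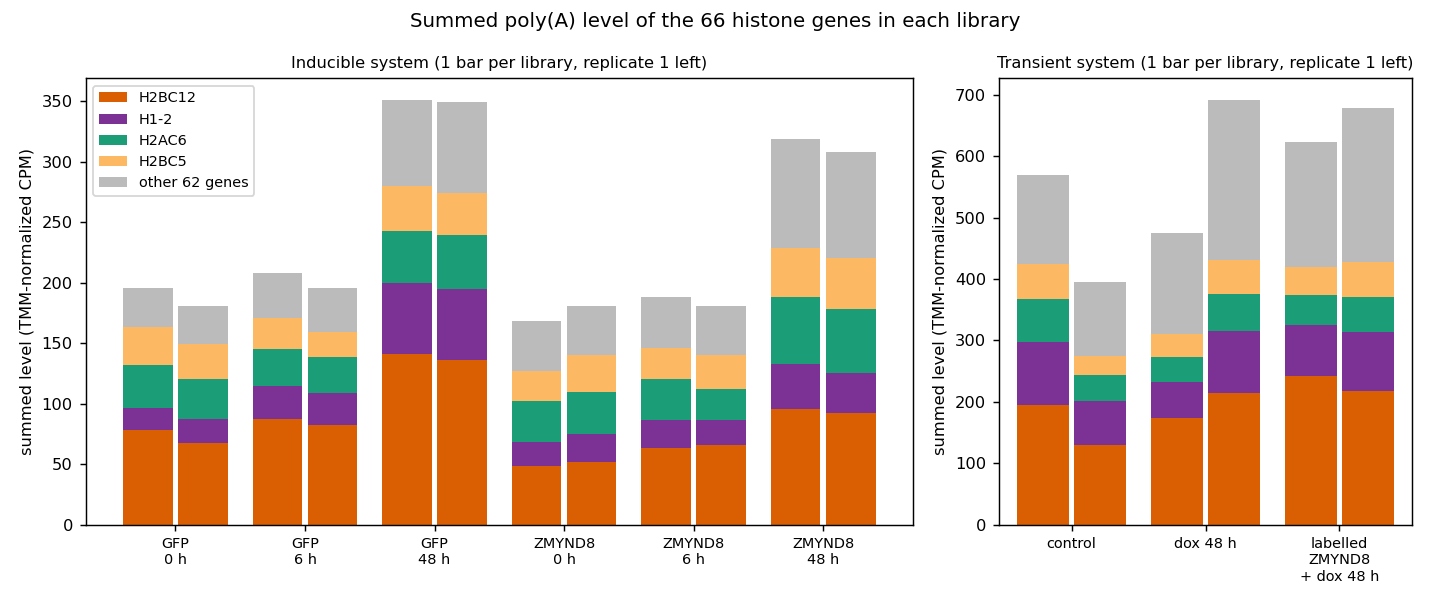
Summed level of the histone genes in TMM-scaled CPM in each of the 18 libraries, stacked into H2BC12, H1-2, H2AC6, H2BC5 and the other 62 genes. All 4 inducible libraries at 48 h stand above all 8 at 0 and 6 h, while the transient control and doxorubicin libraries overlap.

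After 48 h of doxorubicin, 14 of the 21 tested genes rose in GFP cells and none fell (adjusted p of at most 0.05, from the quasi-likelihood test of edgeR and the Benjamini-Hochberg method over 18801 genes). Over all genes tested, 64.2% were called in this comparison, 32.4% as higher and 31.8% as lower. In ZMYND8 cells 16 of the 21 rose and none fell, against 62.3% of all genes called, 31.6% as higher and 30.8% as lower. The median log2 fold change of the members was 1.05 in GFP cells and 0.96 in ZMYND8 cells, while the medians over all genes were 0.03 and 0.05. Measured from 6 h to 48 h, 12 members rose in GFP cells and 16 in ZMYND8 cells and none fell, where 62.2% of all genes were called in GFP cells (32% as higher, 30.2% as lower) and 61.5% in ZMYND8 cells (30.2% as higher, 31.3% as lower). Leaving out a library lost the calls of H2BC6 and H2BC17 in GFP cells over this interval. In ZMYND8 cells it lost those of H4C9 and H2AC13. In GFP cells at least 1 such fit also called a fall, both from 0 h and from 6 h to 48 h.

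Of the linker histone genes, H1-2 and H1-4 were tested, and at 48 h only H1-2 was called. No test compared H1-2 with H1-4. H1-2 stood at 18.7 and 19.8 CPM in GFP cells, at 27.1 and 26.1 CPM after 6 h and at 59.5 and 58.3 CPM after 48 h. In ZMYND8 cells it stood at 19.7 and 23.5 CPM, at 23.4 and 21.3 CPM after 6 h and at 37.2 and 33.2 CPM after 48 h. The libraries at 48 h lay above all others of the same line. Its rise by 48 h was 3.06-fold in GFP cells (log2 1.61, SE 0.08, adjusted p = 1.1e-15 in edgeR) and 1.62-fold in ZMYND8 cells (log2 0.70, SE 0.08, adjusted p = 4.02e-08). H1-4, the other tested H1 gene, stood at 1.84 CPM or less in all libraries and did not pass the test in either line, with log2 fold changes of −1.25 (adjusted p = 0.0542) and −0.61.

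H2AC11 and H2AC6 are the H2A genes with a call in both lines, H2AC6 at the higher level and H2AC11 with the larger fold change of this pair. H2AC11 stood at 3.65 and 5.17 CPM in GFP cells and at 11.2 and 11.4 CPM after 48 h, and at 2.01 and 2.41 against 6.22 and 6.59 CPM in ZMYND8 cells. Its rise was 2.56-fold (log2 1.36, SE 0.17, adjusted p = 1.23e-07 in edgeR) and 2.87-fold (log2 1.52, SE 0.20, adjusted p = 2.18e-07). H2AC6 stood at 35.6 and 33.3 CPM in GFP cells and at 42.3 and 44.8 CPM after 48 h, and at 33.7 and 34.2 against 56.0 and 52.8 CPM in ZMYND8 cells. It rose by 0.34 (SE 0.08, adjusted p = 0.000801) and 0.68 (SE 0.08, adjusted p = 3.39e-08) on the log2 scale, with no overlap of the libraries. Of the other tested H2A genes, H2AC13 was called in ZMYND8 cells (log2 1.59, adjusted p = 0.0177) but not in GFP cells (log2 1.35, adjusted p = 0.0754), and H2AC20 was called in neither. The H2AC13 call was lost without ZMYND8 replicate 1 or 2 or without replicate 1 at 48 h (adjusted p = 0.0597 to 0.286).

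H2B genes made up most of the rises. In GFP cells 8 of 9 and in ZMYND8 cells 9 of 9 were called, with medians of 1.05 and 1.11 on the log2 scale. H2BC11, the divergent partner of H2AC11, had the largest rise of all members in both lines. It stood at 2.18 and 1.53 CPM in GFP cells, at 2.36 and 2.52 CPM after 6 h and at 10.9 and 11.9 CPM after 48 h, a 6.12-fold rise (log2 2.61, SE 0.18, adjusted p = 7.39e-13 in edgeR). In ZMYND8 cells it stood at 2.40 and 2.54, 3.25 and 3.47, and 10.9 and 10.1 CPM, a 4.22-fold rise (log2 2.08, SE 0.17, adjusted p = 3.37e-11). H2BC12 stood at 78.0 and 67.2 CPM in GFP cells and at 141 and 136 CPM after 48 h, and at 48.5 and 51.6 against 95.2 and 92.3 CPM in ZMYND8 cells. The rise of this most abundant member was 1.91-fold and 1.87-fold (log2 0.93 and 0.90). The member without a call in GFP cells was H2BC6 (log2 0.02 there and 0.61 in ZMYND8 cells, adjusted p = 0.00207). H2BC5 had the smallest called rise in both lines, with log2 fold changes of 0.26 and 0.56. Of the calls in GFP cells, that of H2BC5 was lost without GFP replicate 2 or replicate 1 at 48 h (adjusted p = 0.131 and 0.129), that of H2BC17 without replicate 1 of either time (adjusted p = 0.250 and 0.233) and that of H2BC18 without replicate 2 of either time (adjusted p = 0.138 and 0.167). In ZMYND8 cells the H2BC17 call was lost without replicate 2 at 0 h or replicate 1 at 48 h (adjusted p = 0.131 and 0.119).

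Of the 3 tested H3 genes, H3C10 rose in both lines (log2 1.91 and 1.88, adjusted p = 4.01e-05 and 6.23e-05 in edgeR) from levels of 0.475 to 0.912 CPM without doxorubicin to 1.83 to 2.89 CPM after 48 h. H3C2 and H3C3 stood at 1.11 CPM or less throughout and were not called. Of the H4 genes, H4C8 stood at 6.24 and 4.38 CPM in GFP cells and at 14.2 and 14.7 CPM after 48 h, and at 3.02 and 3.33 against 12.5 and 11.4 CPM in ZMYND8 cells. Its log2 fold changes were 1.44 (adjusted p = 1.69e-09) and 1.91 (adjusted p = 4.87e-11). H4C9 rose as well, by 1.40 and 0.74 on the log2 scale, whereas H4C15, whose sequence is nearly all shared with other histone genes, was not called. The H4C9 call in ZMYND8 cells was lost without replicate 2 of either time (adjusted p = 0.139 and 0.0630).

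**Figure D3:**
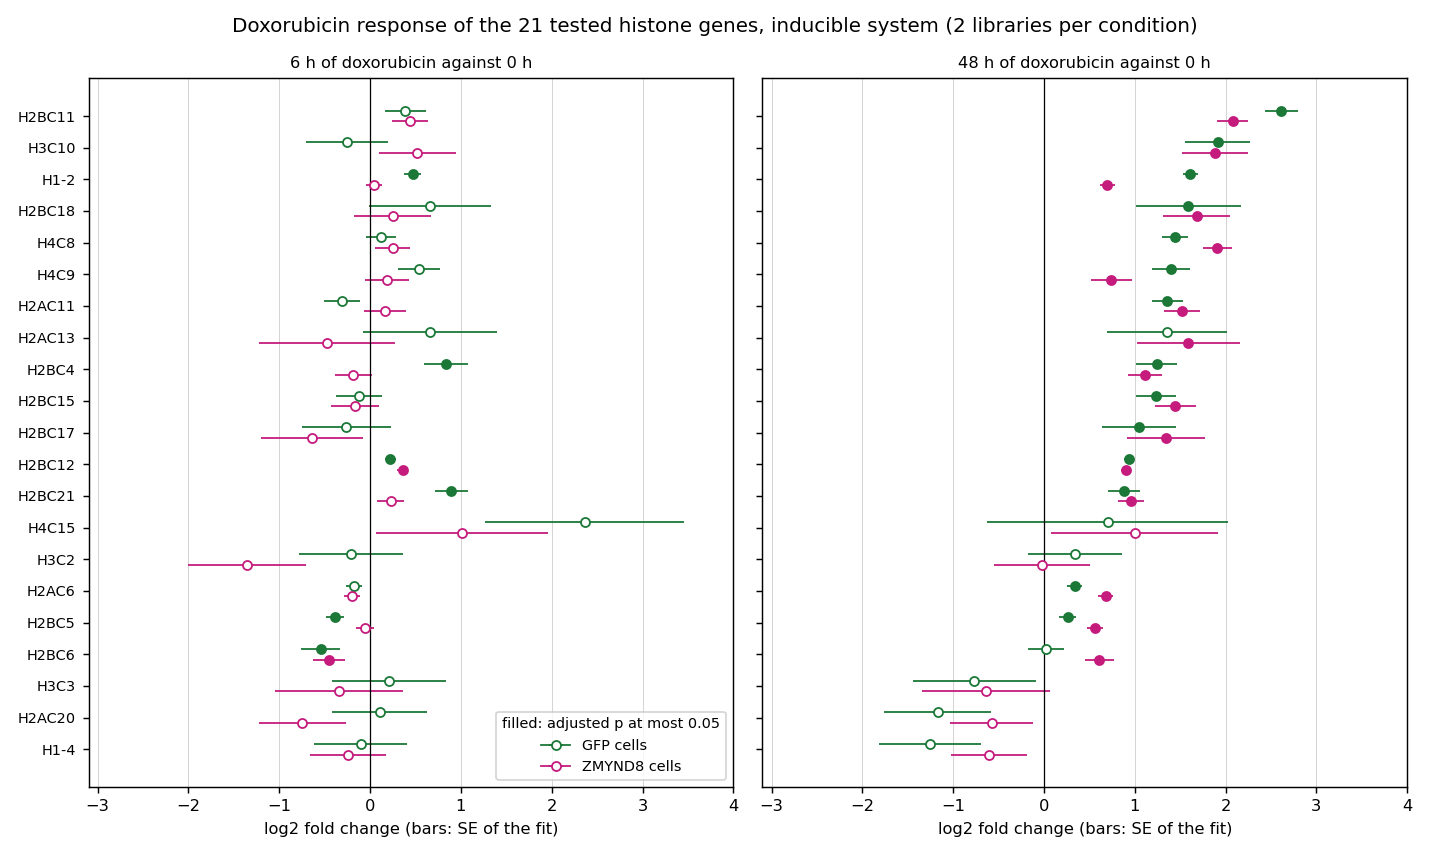
Log2 fold change after 6 h and 48 h of doxorubicin against no doxorubicin for the 21 tested histone genes in GFP and ZMYND8 cells; bars are standard errors and filled points have an adjusted p of at most 0.05. At 48 h 14 genes in GFP cells and 16 in ZMYND8 cells are filled, all of them above 0, with H2BC11 highest in both.

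Rises at 48 h were found in both lines for models that ran past the stem-loop and for models that ended before it. Among genes counted past the stem-loop, 11 of 13 rose in GFP cells and 12 of 13 in ZMYND8 cells. Among genes whose model ended before it, 3 of 5 rose in each line, H2BC12, H1-2 and H2BC17. Among those ending at it, none of 3 was called in GFP cells. In ZMYND8 cells 1 of 3 was, H2AC13, whose call was lost in other fits as given above. A difference between these groups was not tested.

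At 6 h few members had changed. In GFP cells 4 rose and 2 fell, where 47.9% of all genes were called, 22.1% as higher and 25.8% as lower. H2BC21, an H2B gene on chromosome 1, went from 2.99 and 4.43 CPM to 6.35 and 7.44 CPM (log2 0.90, SE 0.18, adjusted p = 0.000169 in edgeR), and H2BC4 from 2.08 and 1.69 CPM to 3.83 and 2.89 CPM (log2 0.83, SE 0.24, adjusted p = 0.00565). H1-2 and H2BC12 rose by 0.47 and 0.22 on the log2 scale, and H2BC5 and H2BC6 fell by 0.39 and 0.54. From 6 to 48 h H2BC21 was at a log2 fold change of −0.01 in GFP cells (adjusted p = 0.946), whereas H2BC11 rose by 2.22 over the same interval. In ZMYND8 cells 1 member rose, H2BC12 by 0.36, and 1 fell, H2BC6 by 0.45, where 40.8% of all genes were called, 21.8% as higher and 19% as lower. The calls of H2BC6 at 6 h were lost in other fits: DESeq2 and a fit without the filter on low counts did not call it in either line, nor did 3 of the 4 fits that left out a GFP library (adjusted p up to 0.257) or any of the 4 that left out a ZMYND8 library (adjusted p up to 0.137). In GFP cells the calls of H2BC12 and H2BC4 were lost without GFP replicate 2 (log2 0.12 and adjusted p = 0.127 for H2BC12), that of H2BC4 also without replicate 1 at 6 h, and that of H2BC5 without replicate 2 at 6 h (log2 −0.22, adjusted p = 0.116).

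Between both lines, the members differed in both directions. Without doxorubicin 4 were higher and 3 lower in ZMYND8 than in GFP cells, where 58.3% of all genes differed (28.7% higher, 29.5% lower). After 6 h 3 were higher and 3 lower, with 55.5% of all genes (28.9% higher, 26.6% lower), and after 48 h 8 were higher and 4 lower, with 60% of all genes (28.4% higher, 31.6% lower). The members' medians were 0.03, −0.24 and 0.01 on the log2 scale. Of the members higher at 48 h, H2BC5 (log2 0.20) and H2AC20 (log2 1.32) were lost in each fit that left out a library of that time (adjusted p up to 0.255 and 0.227) and with DESeq2, and H1-4 (log2 1.58) without GFP replicate 1 (adjusted p = 0.187). H1-2, lower by 0.25 at 6 h, was lost without GFP replicate 1 or ZMYND8 replicate 2 of that time (adjusted p up to 0.141).

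H2BC21, H2BC18 and H2BC6 were higher in ZMYND8 cells at all 3 times. H2BC21 stood at 7.32 and 9.50 CPM in ZMYND8 cells without doxorubicin, against 2.99 and 4.43 CPM in GFP cells (log2 difference 1.20, SE 0.18, adjusted p = 1.34e-06 in edgeR). After 48 h it stood at 16.5 and 16.4 against 6.88 and 6.77 CPM (log2 1.27, SE 0.14, adjusted p = 1.14e-08). H2BC18, also on chromosome 1, stood at 1.23 and 0.656 against 0.304 and 0.158 CPM without doxorubicin (log2 1.96, adjusted p = 0.00393) and at 3.25 and 2.68 against 0.533 and 0.883 CPM after 48 h (log2 2.05, adjusted p = 3.26e-05). H2BC4, on chromosome 6, was higher without doxorubicin and after 48 h, by 1.27 and 1.14. H2BC6 was higher by 0.80, 0.90 and 1.39 at the 3 times. The H2BC18 difference missed the threshold without doxorubicin when GFP replicate 2 or ZMYND8 replicate 1 was left out (adjusted p = 0.0505 and 0.0618) and at 6 h without GFP replicate 2 (adjusted p = 0.174). That of H2BC21 at 6 h was lost without replicate 1 of either line (adjusted p = 0.0732 and 0.115).

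H2BC12 was lower in ZMYND8 cells at all 3 times, with log2 differences of −0.53, −0.40 and −0.56 (adjusted p = 2.18e-08, 1.65e-06 and 4.3e-10 in edgeR), and none of its ZMYND8 libraries overlapped the GFP libraries of the same time. H2AC11 was lower without doxorubicin and after 48 h, by 0.98 and 0.82 on the log2 scale. H4C8 was lower by 0.74 without doxorubicin and by 0.61 after 6 h (adjusted p = 0.0739 and 0.0722 when GFP replicate 1 of that time was left out), and H4C9 by 0.83 after 48 h. On chromosome 1, 3 of the 4 tested members were higher in ZMYND8 cells at 48 h and none was lower, while on chromosome 6, 5 were higher and 4 lower of 17. Of these calls, those of H2AC20 on chromosome 1 and of H2BC5 and H1-4 on chromosome 6 were lost in other fits, as given above. The 2 splits by chromosome were seen after the fit and were not compared by a test. SPARC and ZMYND8 differed between the same lines by the levels given above, and whether the difference of the histone genes comes from ZMYND8 or from the lines cannot be told apart.

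**Figure D4:**
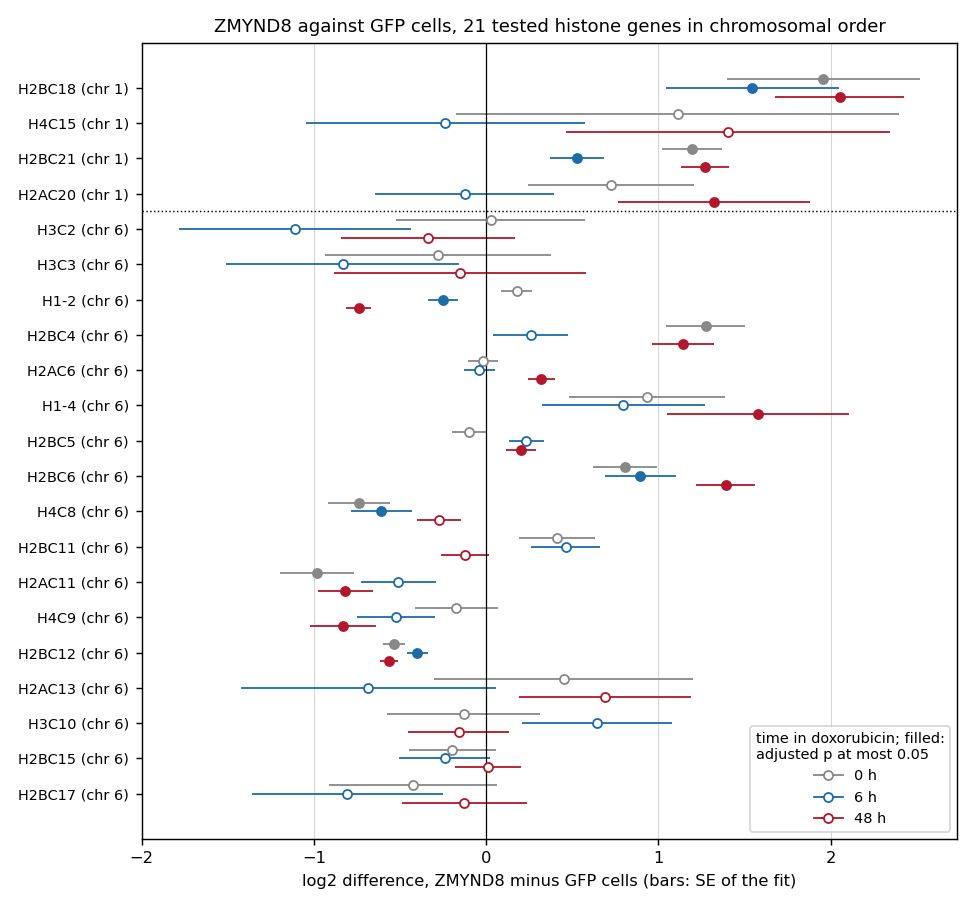
Log2 difference between ZMYND8 and GFP cells for the 21 tested histone genes in chromosomal order without doxorubicin and after 6 and 48 h; bars are standard errors and filled points have an adjusted p of at most 0.05. H2BC18 and H2BC21 on chromosome 1 lie above 0 and H2BC12 on chromosome 6 lies below 0 at each time.

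The response to doxorubicin itself differed between both lines for few members, as tested by the interaction of line and treatment. At 6 h the interaction was negative for H1-2 (log2 −0.43, SE 0.13, adjusted p = 0.0236 in edgeR) and for H2BC4 (log2 −1.02, SE 0.32, adjusted p = 0.0325), where 13.4% of all genes were called, 7.86% as positive and 5.52% as negative. At 48 h it was negative for H1-2 (log2 −0.92, SE 0.12, adjusted p = 7.95e-07) and positive for H2AC6 (log2 0.34, SE 0.12, adjusted p = 0.0266), where 28.6% of all genes were called, 12.7% as positive and 15.8% as negative. The H1-2 call at 6 h was lost without GFP replicate 1 at 0 or 6 h or ZMYND8 replicate 2 at 0 or 6 h (adjusted p = 0.0744 to 0.212). The H2BC4 call was lost without GFP replicate 2 at 0 h, GFP replicate 1 at 6 h or ZMYND8 replicate 1 of either time (adjusted p = 0.0961 to 0.175), and that of H2AC6 without replicate 1 of any of the 4 conditions (adjusted p = 0.0696 to 0.116). The H1-2 call at 48 h was kept in each of these fits. H1-2 did not differ detectably between the lines without doxorubicin (log2 0.18, adjusted p = 0.103), and after 48 h it was lower in ZMYND8 cells (log2 −0.74, adjusted p = 1.41e-09). The other tested members had no call in the interaction at either time, H2BC12 among them with log2 −0.03 at 48 h (SE 0.08, adjusted p = 0.843).

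**Figure D5:**
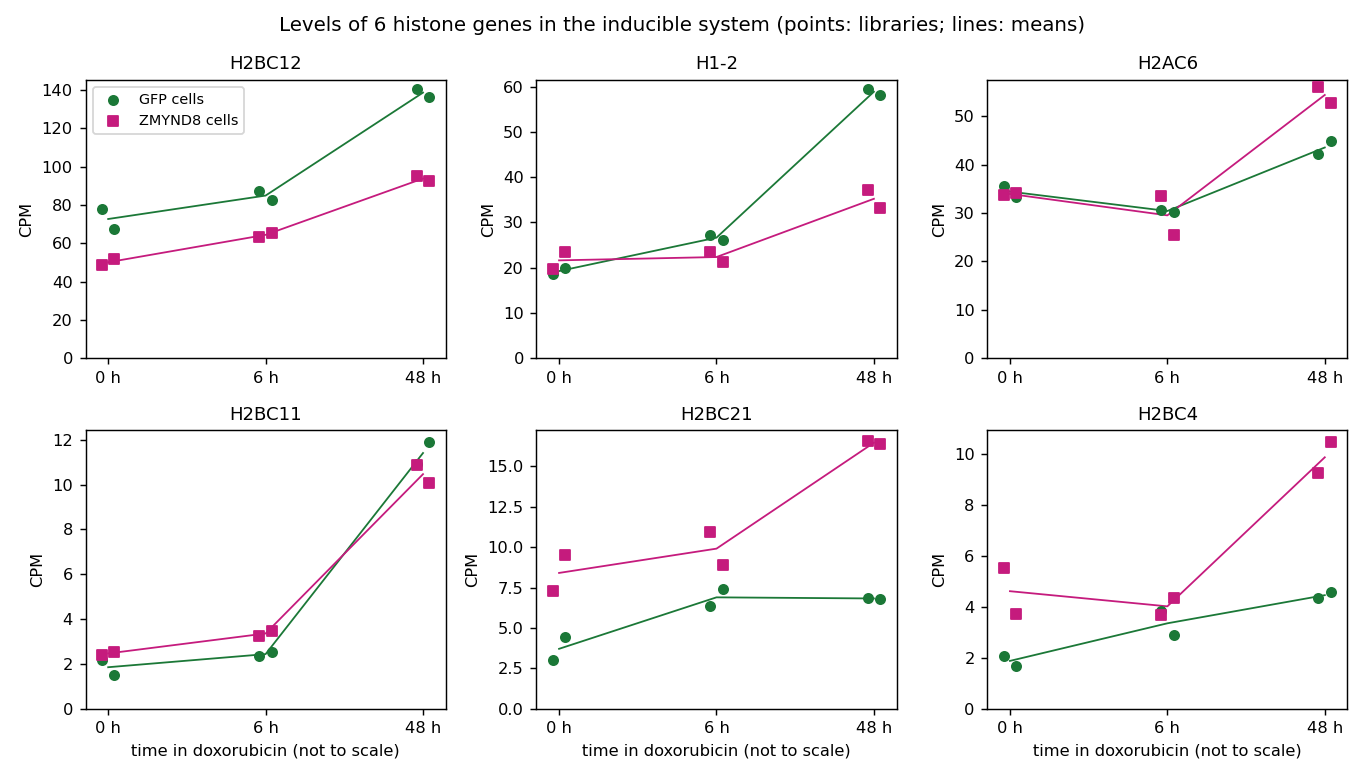
Level in CPM of H2BC12, H1-2, H2AC6, H2BC11, H2BC21 and H2BC4 without doxorubicin and after 6 and 48 h in GFP and ZMYND8 cells; points are libraries and lines join means. H1-2 starts near the same level in both lines and ends at 59.5 and 58.3 CPM in GFP cells against 37.2 and 33.2 CPM in ZMYND8 cells, while H2BC11 ends at 10.9 and 11.9 against 10.9 and 10.1 CPM.

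In the transient system fewer members were called. With doxorubicin 2 of the 14 tested genes rose and none fell, where 5.13% of all 15697 genes were called, 2.98% as higher and 2.15% as lower. In the ZMYND8-labelled libraries 3 rose against control and none fell, where 6.82% of all genes were called, 3.85% as higher and 2.97% as lower. Both comparisons share the control libraries. H2BC11 stood at 10.7 and 9.05 CPM in control cells, at 22.6 and 35.7 CPM with doxorubicin (log2 1.58, SE 0.28, adjusted p = 0.0133 in edgeR) and at 26.2 and 30.7 CPM in the ZMYND8-labelled libraries (log2 1.53, SE 0.29, adjusted p = 0.0134). Its partner H2AC11 stood at 6.11 and 6.09, at 14.8 and 12.6, and at 13.7 and 14.9 CPM, with log2 fold changes of 1.15 (adjusted p = 0.0409) and 1.23 (adjusted p = 0.0289). The control libraries of both genes lay below all treated ones. H2BC15, which overlaps H2AC15 on the other strand, was the third call (log2 1.10, adjusted p = 0.0459). H2BC12, H1-2 and H2AC6 were not called, with log2 fold changes of 0.26, −0.11 and −0.14 with doxorubicin. H1-2 stood at 103 and 70.6 CPM in control cells and at 58.7 and 100.4 CPM with doxorubicin, so its libraries overlapped. Between the ZMYND8-labelled libraries and those of doxorubicin alone, edgeR called no member and 0% of all genes, no member had an unadjusted p under 0.05, and DESeq2 called none.

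Each of the 5 transient calls was lost in at least 1 fit that left out a library. The H2AC11 calls were lost on leaving out any control or treated library of their comparison, with log2 fold changes of 1.04 to 1.27 with doxorubicin (adjusted p = 0.0880 to 0.142) and 1.15 to 1.29 in the ZMYND8-labelled libraries (adjusted p = 0.0714 to 0.144). That of H2BC15 was lost in 3 such fits (log2 0.81 to 1.21). The H2BC11 call with doxorubicin was lost without the second doxorubicin library (log2 1.20). In the ZMYND8-labelled libraries it was lost without either of them (log2 1.39 to 1.63). Fits that left out a library also called fewer genes over all genes in both comparisons with control. A lost call is therefore not particular to the histone genes. Without both treated second libraries, which resemble each other, the log2 fold changes were 1.20 for H2BC11 and 1.28 for H2AC11 with doxorubicin and 1.39 for H2BC11 in the ZMYND8-labelled libraries. That fit has 1 library in each treated condition and takes its spread from the 2 control libraries alone, with 1 residual degree of freedom, so its calls are not read here.

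Stricter cutoffs on the size of a change left fewer members. With an unadjusted p of at most 0.05 and a change of 1.5 or more on the log2 scale, 4 members passed in GFP cells at 48 h (H2BC11, H3C10, H1-2 and H2BC18), where 13.2% of all genes passed, and 6 in ZMYND8 cells (H2BC11, H4C8, H3C10, H2BC18, H2AC13 and H2AC11), where 12.4% of all genes passed. From 6 to 48 h it was 3 in GFP cells (13.1% of all genes) and 5 in ZMYND8 cells (12.9%). At 6 h it was 1 in GFP cells (4.71%), H4C15 with 1 to 12 counts per library, and 0 in ZMYND8 cells (2.73%). H2BC18 alone passed between the lines without doxorubicin (11.4%) and at 6 h (10.6%), and H2BC18 and H1-4 did at 48 h (9.44%). In the interaction 0 members passed at 6 h (2.01%) and at 48 h (3.7%). With a log2 cutoff of 1 in the transient system, 2 members passed with doxorubicin (8.7%), 3 in the ZMYND8-labelled libraries (9.84%) and 0 between both (0.159%).

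Genes that control histone RNA were taken as lists. Of 20 S phase genes, all 20 rose after 48 h of doxorubicin in GFP cells (median log2 fold change 1.12) and 16 rose and 2 fell in ZMYND8 cells (median 0.53), where 32.4% and 31.6% of all genes rose. At 6 h, 18 of them were higher in each line and 1 was lower in ZMYND8 cells, where 22.1% and 21.8% of all genes were higher. RRM2, a subunit of the enzyme that makes deoxynucleotides, rose by 2.09 in GFP and 1.16 in ZMYND8 cells on the log2 scale, and CDC6, which loads the replicative helicase, by 2.15 and 1.36. Of the 20, 19 had a negative interaction at 48 h, which is a smaller rise, or a fall, in ZMYND8 cells, and none had a positive one, where 15.8% of all genes had a negative one. In the transient libraries 16 of 20 rose with doxorubicin (median 1.18), where 2.98% of all genes rose. In GFP cells the 20 genes together stood at 1991 and 1929 CPM without doxorubicin, at 3098 and 3064 CPM after 6 h and at 4602 and 4565 CPM after 48 h. No test set this sum against that of the histone genes. The part of S phase cells in the histone changes was not tested.

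Of 14 genes for the transcription of histone genes, 9 rose and 2 fell in GFP cells and 8 rose and 2 fell in ZMYND8 cells at 48 h (medians 0.34 and 0.38). Over all genes 32.4% rose and 31.8% fell in GFP cells and 31.6% rose and 30.8% fell in ZMYND8 cells. NPAT, the coactivator of histone transcription, rose by 0.40 in GFP cells (adjusted p = 1.34e-05 in edgeR) and was at 0.08 in ZMYND8 cells (adjusted p = 0.365). E2F1 and CCNE2, which act at the entry into S phase, rose by 1.65 and 1.98 in GFP cells. POU2F1, the octamer-binding factor, fell by 0.86 and 0.57. The 20 S phase genes include E2F1, CCNE2 and SLBP as well, so the lists are not independent.

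Of 22 genes for the processing of histone and other mRNA 3′ ends, 15 rose and 2 fell in GFP cells and 13 rose and 6 fell in ZMYND8 cells, where 64.2% and 62.3% of all genes were called in either direction. SLBP, the stem-loop binding protein, rose by 0.97 in GFP cells (adjusted p = 2.07e-16 in edgeR) and by 0.51 in ZMYND8 cells (adjusted p = 8.44e-11). ZNF473, a zinc finger protein of the U7 pathway, rose by 1.55 and 0.80. LSM11, a U7-specific subunit, fell by 0.60 and 0.22, and LSM10, its partner, was at −0.06 and 0.02 without a call. CSTF2, a factor of ordinary polyadenylation, rose by 0.81 and 0.55.

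Of 17 tested genes for the translation and decay of histone mRNA, 5 rose and 6 fell in GFP cells and 3 rose and 7 fell in ZMYND8 cells, with medians of 0.01 and 0.02. These 11 and 10 called genes are a share near that of all genes, 64.2% and 62.3%. XRN1, a 5′ to 3′ exonuclease, fell by 0.64 and 0.38, and TUT7, a uridylyl transferase, by 0.57 and 0.50. ERI1, the exonuclease that trims the stem-loop, was at 0.01 and 0.07 without a call.

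Of 21 genes for histone chaperones and histone acetylation, 14 rose and 4 fell in GFP cells and 9 rose and 2 fell in ZMYND8 cells, against 64.2% and 62.3% of all genes called. In ZMYND8 cells the 11 called genes are a smaller share than that of all genes. HAT1, which acetylates newly made H4, rose by 0.97 and 0.47. CHAF1A, the large subunit of the chromatin assembly factor that deposits histones at forks, rose by 1.24 in GFP cells and 0.14 in ZMYND8 cells, and its interaction was −1.09 (adjusted p = 2.97e-10 in edgeR). ATRX, which acts with DAXX in deposition outside of replication, fell by 1.38 and 1.18.

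Of 12 tested replication-independent histone genes and variants, 5 rose and 4 fell in GFP cells and 3 rose and 3 fell in ZMYND8 cells, with medians of 0.14 and 0.06, where 64.2% and 62.3% of all genes were called. A difference between these genes and the members was not tested. H1-10, a linker histone gene whose mRNA is polyadenylated, fell by 0.89 in GFP cells and by 1.18 in ZMYND8 cells, while H1-2 rose in both. H3-3B, a gene of the replacement histone H3.3, rose by 0.33 and 0.48.

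As a measure of RNA carried over without a poly(A) tail, 16 small noncoding RNA genes were summed. In each library 10 to 13 of them were at 0, and RN7SL1 gave nearly all counts, with 175 to 667 CPM in the inducible and 43.0 to 323 CPM in the transient libraries. Without RN7SL1 the sum was 0.710 to 2.85 CPM in the inducible and 0.845 to 3.94 CPM in the transient libraries. Multi-mapping and ambiguous pairs were left out of the counts, so a value of 0 does not show that such an RNA was absent. In the transient system RN7SL1 stood at 84.5 and 43.0 CPM in control cells, at 139 and 322 CPM with doxorubicin and at 104 and 323 CPM in the ZMYND8-labelled libraries, with log2 fold changes of 1.86 and 1.75 that missed the threshold (adjusted p = 0.0649 and 0.0675 in edgeR). In the inducible system RN7SL1 was at a log2 fold change of −0.27 after 48 h in GFP cells (adjusted p = 0.206 in edgeR) and fell by 0.52 in ZMYND8 cells (adjusted p = 0.0211). Its mean levels without doxorubicin and after 6 and 48 h were 633.5, 623 and 525 CPM in GFP cells. In ZMYND8 cells they were 319, 264 and 221 CPM. The part of RNA without a tail in the histone levels, or in their differences between the lines, was not tested.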

How the data were processed

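The deposited counts of read pairs per gene were made by the authors with featureCounts 1.6.4 on GENCODE release 31 (hg38), per the file headers with the reverse-strand setting, and multi-mapping and ambiguous pairs were left out. The study's methods name TopHat as aligner, whereas the submitters' processing notes name Trim Galore, HISAT2, featureCounts and DESeq2. Counts were not normalized before deposition. Here each system was fitted by itself in edgeR 4.0.16 (R 4.3.3), with TMM factors, the filter by expression, a mean per condition and the quasi-likelihood test. The p-values were adjusted by the Benjamini-Hochberg method over the genes passing that filter, 15697 in the transient system and 18801 in the inducible one. Alternatives were DESeq2 1.42.0, RLE factors, total counts, no filter, the cutoffs of the study, a replicate block and leaving out libraries. Both libraries of a condition are labelled biological replicates. With 2 against 2 libraries an exact permutation p cannot go below 0.333. The same fit on simulated counts recovered 38.1% of 105 changes of 2-fold and 84.2% of 95 of 4-fold in the transient design, and 84.7% of 111 and 96.6% of 89 in the inducible design, with 5.51% and 7.69% of calls false. The members, the gene lists and their tests were chosen with earlier results of these data known. Named members are the 12 highest in CPM per kb and up to 3 rises and 3 falls per comparison. Others named singly (H2AC15, H2AC20, H3C2, H3C3, H4C15 and the ends of the low runs) were picked after their values were seen.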

Additional observations from a re-analysis of the deposited data

Results flagged for a closer look

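The response to doxorubicin differed between both inducible lines for 3 members, by the interaction of line and treatment in edgeR's quasi-likelihood test. For H1-2 the log2 interaction was −0.43 at 6 h (SE 0.13, adjusted p = 0.0236) and −0.92 at 48 h (SE 0.12, adjusted p = 7.95e-07), and its libraries at 48 h stood at 59.5 and 58.3 CPM in GFP cells against 37.2 and 33.2 CPM in ZMYND8 cells. For H2BC4 it was −1.02 at 6 h (SE 0.32, adjusted p = 0.0325), with 3.83 and 2.89 CPM in GFP cells and 3.70 and 4.36 CPM in ZMYND8 cells at that time, after 2.08 and 1.69 against 5.53 and 3.72 CPM without doxorubicin. For H2AC6 it was 0.34 at 48 h (SE 0.12, adjusted p = 0.0266), with 42.3 and 44.8 CPM in GFP cells and 56.0 and 52.8 CPM in ZMYND8 cells. The H1-2 interaction at 48 h was called with DESeq2, RLE factors, total counts, no filter and the replicate block and in each fit that left out a library, and the other 3 were each lost in at least 4 of the fits that left out a library. Groups of 2 libraries are too small to single out an outlying library.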

How the results depend on the processing

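No called change of a member turned its direction under any alternative run. Of 100 calls of single members, DESeq2 kept 91, RLE factors 99, total counts 99 and a fit without the filter on low counts 95. Fits that left out a library lost calls more often than any of these alternatives, among them those given with the members above. With an unadjusted p and a cutoff on the fold change, the called members came to 1 at 6 h, 4 at 48 h and 3 from 6 to 48 h in GFP cells, to 0, 6 and 5 in ZMYND8 cells, to 1, 1 and 2 between the lines at 0, 6 and 48 h, and to 0 in either interaction. The 2 members called at 6 h in ZMYND8 cells became 1 with DESeq2, 1 without the filter and 1 with the replicate block. The interaction at 6 h had 1 member with DESeq2 and 4 without the filter, and that at 48 h had 1 with DESeq2 and 1 with total counts. Leaving out 1 library gave 0 to 1 called members for transient doxorubicin (0 without its second library), 0 to 2 in the ZMYND8-labelled libraries (0 without either of them), 4 to 5 at 6 h and 12 to 14 at 48 h in GFP cells, 1 to 2 and 13 to 15 in ZMYND8 cells, 10 to 12 between the lines at 48 h, and 1 to 2 and 1 to 4 in the interactions at 6 and 48 h (4 without the second ZMYND8 library). Leaving out both treated second transient libraries, an alternative chosen after seeing the data with 1 residual degree of freedom, gave 0 and 1. In each case the cause was not tested. Fits that left out a library also called fewer genes over all genes than the main fit, except between both treated transient conditions. Total counts in place of TMM moved the median of all genes at 48 h to 0.27 in GFP and 0.25 in ZMYND8 cells and that of the members to 1.29 and 1.16.

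Replicate numbers are shared by all conditions, but no label says that a number marks a shared culture or day. Deviations of libraries with the same number correlated by 0.199 to 0.462 over 11401 genes in the transient system and by −0.215 to 0.084 over 10253 genes in the inducible system, and with 2 numbers this does not establish a pairing. With the replicate block, the 12 members called between the lines at 48 h became 10, without H2BC5 and H2AC20, 3 members were called in both transient comparisons with control, and the calls over all genes went from 805 to 2410 with doxorubicin and from 1071 to 2795 in the ZMYND8-labelled libraries.

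Too few counts for a test were found for 45 of 66 members in the inducible and 52 in the transient system. Members at or near 0 counts are not shown to be unexpressed, since most of their mRNA carries no poly(A) tail and near-identical copies lose reads.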
